A study of Homo sapiens with 5 samples.

Results

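The genes described here encode 6 subunits of the transcription factor AP-1: FOS, FOSB and FOSL2 of the FOS family, and JUN, JUNB and JUND of the JUN family. The 6 genes were chosen with earlier results of these data known. Peaks were assigned to a gene when at least 1 bp lay within 5 kb of its span on the human build hg19. This assignment went by position and not by any measured value. Of 1150695 peaks in the 6 lists of the series, 183 met this rule, 88 in the lists that used IgG as control and 95 in those that used input. The material was U2932, an established human lymphoma cell line kept untreated. Chromatin was immunoprecipitated (ChIP) with either of 2 non-commercial rabbit polyclonal antibodies against PRDM11, a protein of the PR domain family, or with 1 that recognises RNA polymerase II (sc-899X), and each of these 3 libraries was sequenced. A rabbit IgG precipitate and an input sample without antibody were the controls, which makes 5 libraries, each the only one of its kind. All of them come from 1 cell line, which limits how far a result extends to other cells.

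AP-1 is a dimer of basic leucine zipper proteins: JUN proteins pair with each other or with FOS proteins, while FOS proteins need a JUN partner to bind DNA. FOS, FOSB, JUN and JUNB are classical immediate early genes, transcribed within minutes of a stimulus, and JUND is known for steadier expression. PRDM11 has been reported to regulate FOS and JUN, so the question is where its antibodies gave peaks at these genes and how those peaks lie relative to RNA polymerase II, by which such genes are transcribed.

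With 1 library for each antibody there is no replicate error and no test between antibodies. The deposited lists give positions without read counts, so the depth behind a peak is unknown, and a wider peak is not shown to be a stronger one. Percentages carry exact (Clopper-Pearson) 95% binomial intervals, which cover counting error only and treat peaks as independent, although neighbouring peaks of 1 gene share a locus. Values refer to the lists against IgG unless input is named. Distances run in the direction of transcription from the annotated start of the span. Antibody 1 had 22 peaks at the 6 genes out of 13499 in its list, antibody 2 had 38 of 465837, and RNA polymerase II had 28 of 50161.

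The promoters are shown first, because the genes differed in which peaks lay over the start site. RNA polymerase II peaks covered the start site of all 6 genes, and antibody 1 peaks covered those of FOS, FOSL2 and JUNB. How often such peaks cover the starts of other genes was not counted, so these numbers have no background beside them. The 250 bases upstream of the start are printed for FOS and JUNB, whose starts lay inside an antibody 1 peak, and for FOSB and JUN, whose starts did not. They come from the RefSeq promoter table of build GRCh38.p14, which held all 6 genes, at chr14:75278578-75278827 (plus strand) for FOS, chr19:12791236-12791485 (plus) for JUNB, chr19:45467746-45467995 (plus) for FOSB and chr1:58784048-58784297 (minus) for JUN. These coordinates cannot be set against the hg19 peak positions, and lengths of the gene models differ between the builds by 1 to 66 bp for all members but FOSL2 (2722 bp). Capitals mark the TATA box (TATAAA), the CCAAT box, the GC box (GGGCGG) and, in JUN, the AP-1-like site TGACATCA, each searched on both strands.
FOS: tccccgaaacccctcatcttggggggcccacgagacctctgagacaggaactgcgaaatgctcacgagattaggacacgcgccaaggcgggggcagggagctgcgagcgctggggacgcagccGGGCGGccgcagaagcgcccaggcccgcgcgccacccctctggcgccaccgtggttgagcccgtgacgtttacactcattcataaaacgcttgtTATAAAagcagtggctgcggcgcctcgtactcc
JUNB: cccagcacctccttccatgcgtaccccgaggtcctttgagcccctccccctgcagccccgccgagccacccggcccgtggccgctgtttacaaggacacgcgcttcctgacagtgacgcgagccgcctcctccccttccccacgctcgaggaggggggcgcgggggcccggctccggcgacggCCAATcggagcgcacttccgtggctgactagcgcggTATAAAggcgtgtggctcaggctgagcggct
FOSB: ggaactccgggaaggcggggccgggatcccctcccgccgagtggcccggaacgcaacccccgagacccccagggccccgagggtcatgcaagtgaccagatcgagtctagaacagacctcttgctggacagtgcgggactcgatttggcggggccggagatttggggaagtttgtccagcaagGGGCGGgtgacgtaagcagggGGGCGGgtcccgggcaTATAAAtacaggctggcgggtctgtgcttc
JUN: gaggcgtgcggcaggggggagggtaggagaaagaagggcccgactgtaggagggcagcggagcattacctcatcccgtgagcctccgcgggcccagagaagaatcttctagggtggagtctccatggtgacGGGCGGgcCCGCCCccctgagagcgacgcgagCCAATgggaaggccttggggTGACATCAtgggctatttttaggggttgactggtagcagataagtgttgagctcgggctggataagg

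The TATA box sequence TATAAA stood in 3 of the 6 promoters, 28 to 33 bases before the start in FOS, 25 to 30 in FOSB and 26 to 31 in JUNB. It is found in 10.7% of the 35116 promoters of the table. It was therefore present both in genes with and in a gene without an antibody 1 peak over the start. JUN held TGACATCA 60 to 67 bases before its start, a sequence present in 2.37% of all promoters, and JUND held the cyclic AMP response element TGACGTCA at 193 to 200 bases (1.65% of all). The CCAAT box was found in JUN, JUNB and JUND (32.0% of all promoters), and the GC box in every member except JUNB (42.6%). No member had the consensus AP-1 site TGAGTCA (4.20% of all), the E-box CACGTG (6.34%) or a CArG box (1.16%), the core of the serum response element, within these 250 bases. None of the marked sequences overlapped another, and each match is a match of letters only.

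**Figure D1:**
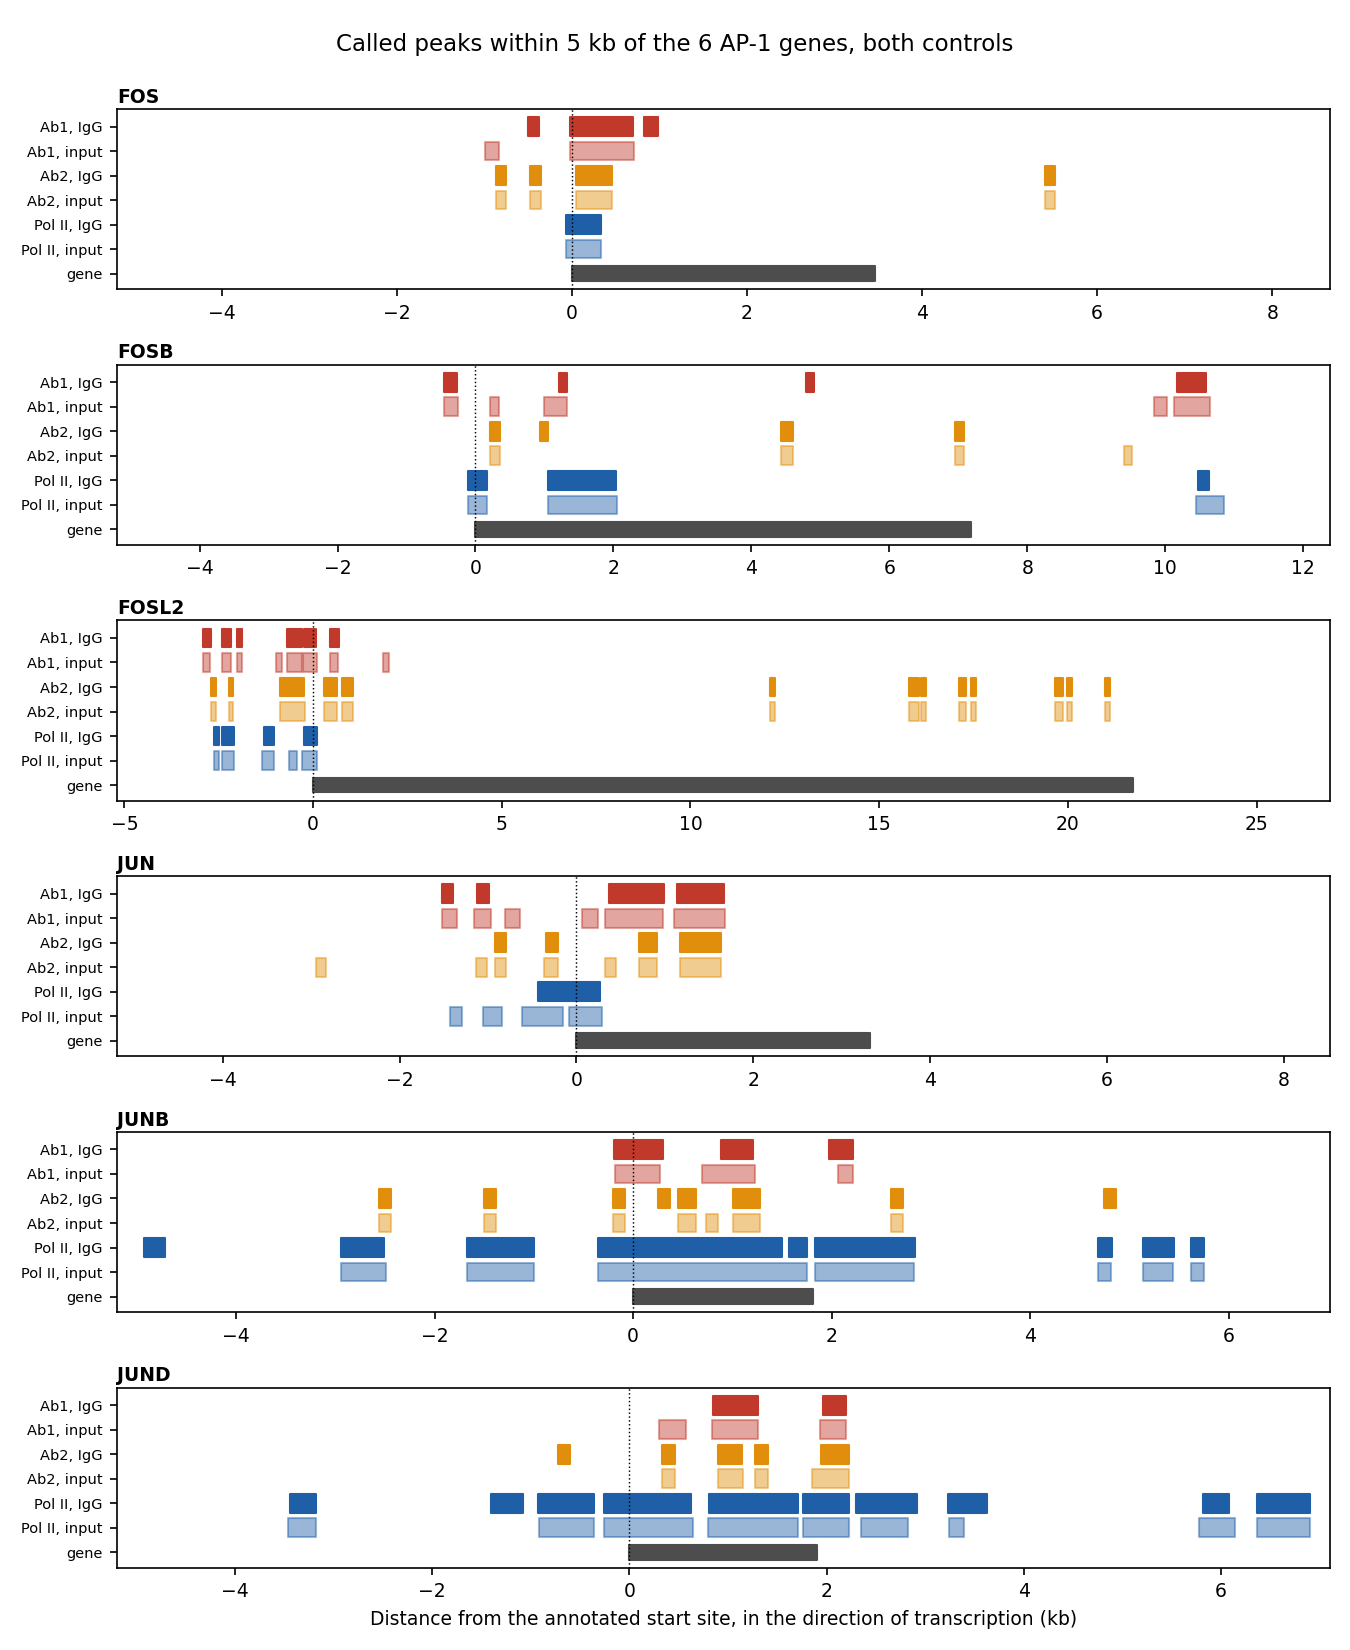
Called peaks (bars) of PRDM11 antibody 1 (Ab1), PRDM11 antibody 2 (Ab2) and RNA polymerase II (Pol II) within 5 kb of each gene, against distance from the start site in kb. Dark bars are lists against IgG, pale bars lists against input, and the grey bar is the gene. Antibody 1 peaks lie mainly around the start, while RNA polymerase II bars fill the JUNB and JUND panels.

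Every one of the 6 genes had peaks of all 3 antibodies. Antibody 1 had 3 peaks at FOS, 4 at FOSB, 6 at FOSL2, 4 at JUN, 3 at JUNB and 2 at JUND. For comparison, the chromosomes were divided into bins of 13390 bp, the median length of the 6 gene windows. Antibody 1 peaks were present in 4.69% of all bins and in 34.6% of the bins that held an RNA polymerase II peak. The latter is the nearer comparison, since all 6 members held an RNA polymerase II peak and most bins did not. RNA polymerase II itself was found in 8.92% of bins. For antibody 2, presence at 6 of 6 genes says little, because 80.4% of all bins, and 95.5% of bins with RNA polymerase II, held one of its peaks. Peaks of antibody 1 that overlapped a peak of antibody 2 by at least 1 bp, here called shared regions, were present at 5 of 6 genes, all but FOSB. The bin values for shared regions were 2.31% of all bins and 21.2% with RNA polymerase II. With bins as long as the longest window, that of FOSL2 (31738 bp), 45.1% of bins with RNA polymerase II held antibody 1 and 27.7% a shared region. Background levels were higher against input. Antibody 1 was then present in 11.5% of all bins and 47.4% with RNA polymerase II, and shared regions in 4.23% and 28.1%. At the FOSL2 length, 58.7% of bins with RNA polymerase II held antibody 1 and 34.6% a shared region.

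Per length, antibody 1 stood further above its own genome-wide level than the other libraries did, although its density at the genes was the lowest. It had 2.21 peaks per 10 kb in the gene windows and 0.0458 per 10 kb over all chromosomes, a ratio of 48.3. The ratio was 16.5 for RNA polymerase II (2.82 and 0.170 peaks per 10 kb) and 2.42 for antibody 2 (3.82 and 1.58). Against input the ratio for antibody 1 was 14.8, with 2.72 peaks per 10 kb at the genes and 0.183 over all chromosomes, while RNA polymerase II gave 10.7 and antibody 2 gave 2.37. The lower ratio of antibody 1 thus came with a higher level over all chromosomes, not with fewer peaks at the genes. Under both controls the ratios ran in the reverse order of list length, the shortest list giving the highest ratio. How far list length alone sets this ranking was not tested. Peak density was not computed over bins that held an RNA polymerase II peak, the nearer comparison, so the ratios are set against all chromosomes only. FOSB, JUNB and JUND lie on chromosome 19, where antibody 1 peaks (0.149 per 10 kb) and RNA polymerase II peaks (0.632 per 10 kb) were denser than over all chromosomes. The 1-Mb bins around the 6 genes held 9 to 31 antibody 1 peaks against IgG and 14 to 37 against input.

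FOS is the prototype of the family and lies on chromosome 14 (hg19 chr14:75745481-75748937, plus strand). Its main antibody 1 peak was 723 bp wide (chr14:75745456-75746178) and ran from 25 bp upstream of the start to 697 bp inside the gene. Only 4.64% of antibody 1 peaks in the list were as wide or wider. Antibody 2 had a 419 bp peak wholly within it, from 42 to 460 bp after the start, a width reached by 0.276% of its list. The only RNA polymerase II peak at FOS was 406 bp wide, from 72 bp upstream to 333 bp downstream, and shared 359 bp with antibody 1 and 292 bp with antibody 2. The 3 antibodies therefore met at the beginning of the gene, and all 3 peaks were found again against input (737, 419 and 402 bp). A second shared region of 108 bp lay 375 to 482 bp upstream, in a 123 bp antibody 1 peak that was not found against input. A 161 bp antibody 1 peak at 823 to 983 bp inside the gene was also missing from the input list. The input list instead had a 157 bp antibody 1 peak 839 to 995 bp upstream.

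JUN, the founding partner of FOS, lies on chromosome 1 (chr1:59246463-59249785, minus strand) and has no intron, like JUNB and JUND. It differed from FOS in that its wide antibody 1 peaks lay inside the gene and away from the start. These were a 621 bp peak at 368 to 988 bp (chr1:59248797-59249417) and a 532 bp peak at 1143 to 1674 bp (chr1:59248111-59248642). Both contained antibody 2 peaks in full, of 205 bp at 708 to 912 bp and of 458 bp at 1173 to 1630 bp. Only 0.199% of antibody 2 peaks were at least 458 bp wide. RNA polymerase II gave 1 peak of 692 bp at the start, from 429 bp upstream to 262 bp downstream, and it overlapped neither of the 2 antibody 1 peaks. So at JUN the shared regions and the polymerase peak stood side by side in the lists against IgG, with 105 bp between the nearest antibody 1 peak and the polymerase peak, whereas at FOS they coincided. Of the upstream antibody 1 peaks, one of 128 bp lay 992 to 1119 bp and one of 123 bp 1402 to 1524 bp before the start, and neither touched an antibody 2 peak. Against input both internal peaks returned (659 and 577 bp), and an added 178 bp antibody 1 peak at 61 to 238 bp lay inside a 371 bp polymerase peak. Polymerase had 4 peaks at JUN against input, and still none overlapped the internal antibody 1 peaks. Upstream, however, a 191 bp antibody 1 peak (963 to 1153 bp before the start) then shared 123 bp with antibody 2 and 98 bp with polymerase, and a 177 bp peak (1348 to 1524 bp) shared 79 bp with polymerase. The separation at JUN thus held under both controls for the shared regions inside the gene and only with IgG for these 2 upstream peaks.

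JUNB (chr19:12902310-12904125, plus strand) and JUND (chr19:18390563-18392466, minus strand) had the highest coverage by RNA polymerase II peaks. Polymerase peaks covered 92.2% of the JUNB span and 87.8% of the JUND span, against 16.0% for FOSB, 9.66% for FOS, 7.91% for JUN and 0.501% for FOSL2. Against input the 2 high values were 96.3% and 89.2%, and the next was again FOSB with 16.2%. JUNB had 9 and JUND 10 of the 28 polymerase peaks, which reached past both ends of each gene. The widest, 1851 bp over the JUNB start (chr19:12901957-12903807), belonged to the widest 0.716% of the list. At JUNB it was followed by peaks of 177 bp (1573 to 1749 bp) and 1001 bp (1834 to 2834 bp), then by peaks of 143, 307 and 133 bp from 4679 to 5747 bp, and preceded by peaks of 673, 428 and 211 bp from 1000 to 4925 bp upstream. At JUND an 878 bp peak covered the start (256 bp upstream to 621 bp downstream), a 906 bp peak lay at 806 to 1711 bp and a 467 bp peak at 1761 to 2227 bp spanned the gene end. Beyond it followed peaks of 619, 399, 266 and 536 bp from 2298 to 6901 bp, and upstream lay peaks of 570, 324 and 262 bp from 359 to 3445 bp. Both genes thus had polymerase peaks in close succession from the promoter to past the gene end. Neighbouring genes were named only from RefSeq on GRCh38.p14: HOOK2 and PRDX2 lie at or within 5 kb of JUNB, and the microRNA gene MIR3188 within 5 kb of JUND. The outer peaks therefore need not belong to the AP-1 gene. The same limit holds for JUN and FOSL2, since the noncoding RNA gene JUN-DT lies within 5 kb of JUN and FOSL2-AS1 overlaps FOSL2.

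**Figure D2:**
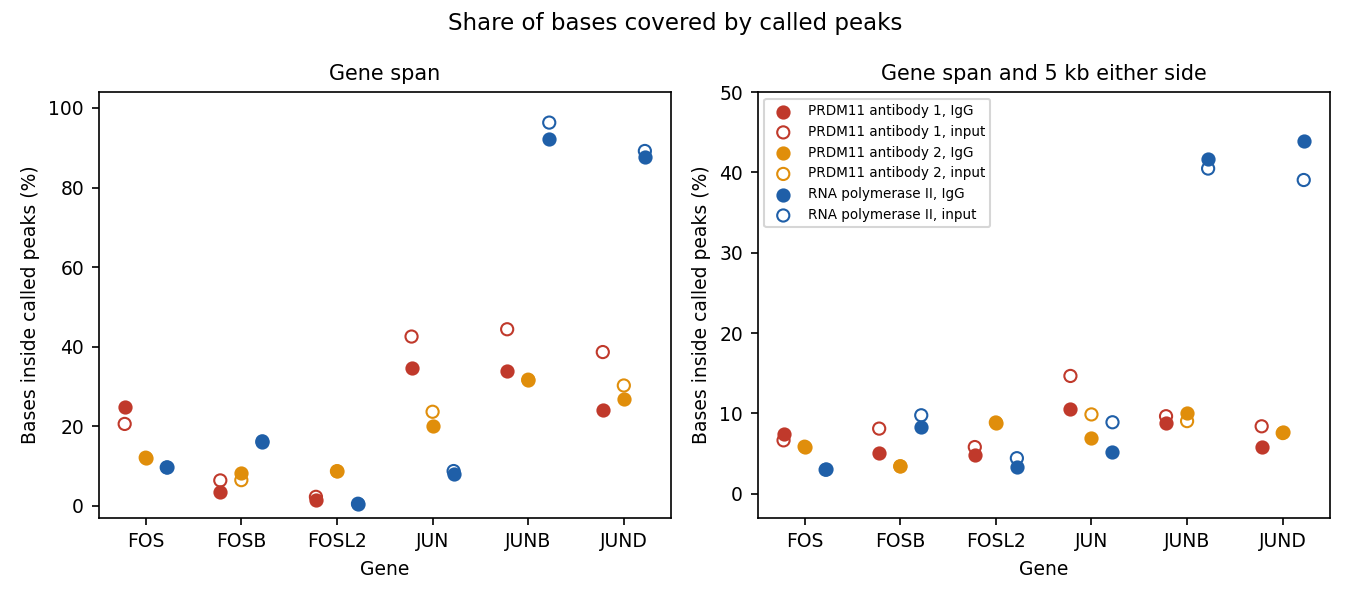
Percentage of bases inside called peaks in the gene span (left) and in the span with 5 kb either side (right), per gene and library. Filled circles are lists against IgG and open circles lists against input, and a single circle is seen where they coincide. RNA polymerase II stands at 92.2% and 87.8% of the JUNB and JUND spans and at 16.0% or less for the other genes, while antibody 1 is highest at JUN and JUNB.

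Antibody 1 coverage did not follow this order. It took up 34.7% of the JUN span, 33.9% of JUNB, 24.8% of FOS, 24.1% of JUND, 3.42% of FOSB and 1.45% of FOSL2. Against input the values were 44.4% for JUNB, 42.6% for JUN, 38.7% for JUND, 20.6% for FOS, 6.40% for FOSB and 2.28% for FOSL2, so that JUND passed FOS. With IgG, JUN and JUNB were thus alike in antibody 1 coverage (34.7% and 33.9%) with polymerase coverage of 7.91% and 92.2%. Antibody 2 covered 31.7% of JUNB, 26.8% of JUND, 20.0% of JUN, 12.1% of FOS, 8.74% of FOSL2 and 8.18% of FOSB. Spans differ in length, from 1816 bp for JUNB to 21738 bp for FOSL2, and peaks gathered near the start leave a long gene with a low percentage. Over the gene windows the antibody 1 values lay closer together, between 4.83% at FOSL2 and 10.5% at JUN, against 0.121% for all chromosomes.

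At JUNB, antibody 1 had a 485 bp peak over the start, from 188 bp upstream to 296 bp downstream (chr19:12902122-12902606), which lay wholly in the polymerase peak. It overlapped 2 antibody 2 peaks of 123 bp only at its edges, by 106 and 45 bp. A second peak of 319 bp at 890 to 1208 bp shared 203 bp with a 268 bp antibody 2 peak at 1006 to 1273 bp. The remaining one, 237 bp wide, began 159 bp past the end of the gene, inside a polymerase peak of 1001 bp and without antibody 2. All 3 were found against input.

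At JUND the nearest antibody 1 peak began 848 bp after the start. This 458 bp peak lay at 848 to 1305 bp inside the gene (chr19:18391161-18391618) and contained a 248 bp antibody 2 peak in full, and a 231 bp peak lay 60 bp past the gene end (chr19:18390273-18390503), wholly within a 286 bp antibody 2 peak at 1941 to 2226 bp. Both lay entirely in polymerase peaks and returned against input. Input added a 265 bp antibody 1 peak at 305 to 569 bp, inside the polymerase peak over the start.

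The 3 intronless JUN genes had an arrangement in common: a shared region well inside the gene. The segments common to both antibodies ran from 1173 to 1630 bp at JUN, from 1006 to 1208 bp at JUNB and from 894 to 1141 bp at JUND, and all 3 segments were present against input, at 1173 to 1630, 1006 to 1222 and 894 to 1155 bp. Against input, common segments were also present nearer to the start, at 327 to 449 bp in JUN, 733 to 855 bp in JUNB and 335 to 457 bp in JUND. JUNB and JUND also had an antibody 1 peak just past the gene end, which JUN did not. In the FOS family the widest common segments lay nearer to the start, from 42 to 460 bp at FOS and from 305 to 688 bp upstream at FOSL2. A narrower segment lay inside FOSL2, at 450 to 636 bp under both controls. FOSB had none against IgG and 1 at 205 to 340 bp against input. The input segments at 327 to 449 bp in JUN and 335 to 457 bp in JUND lie within the range of the FOS segment, 42 to 460 bp. The contrast between the families therefore rests on the wider segments. It was seen in these libraries after the positions were known and was not tested.

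**Figure D3:**
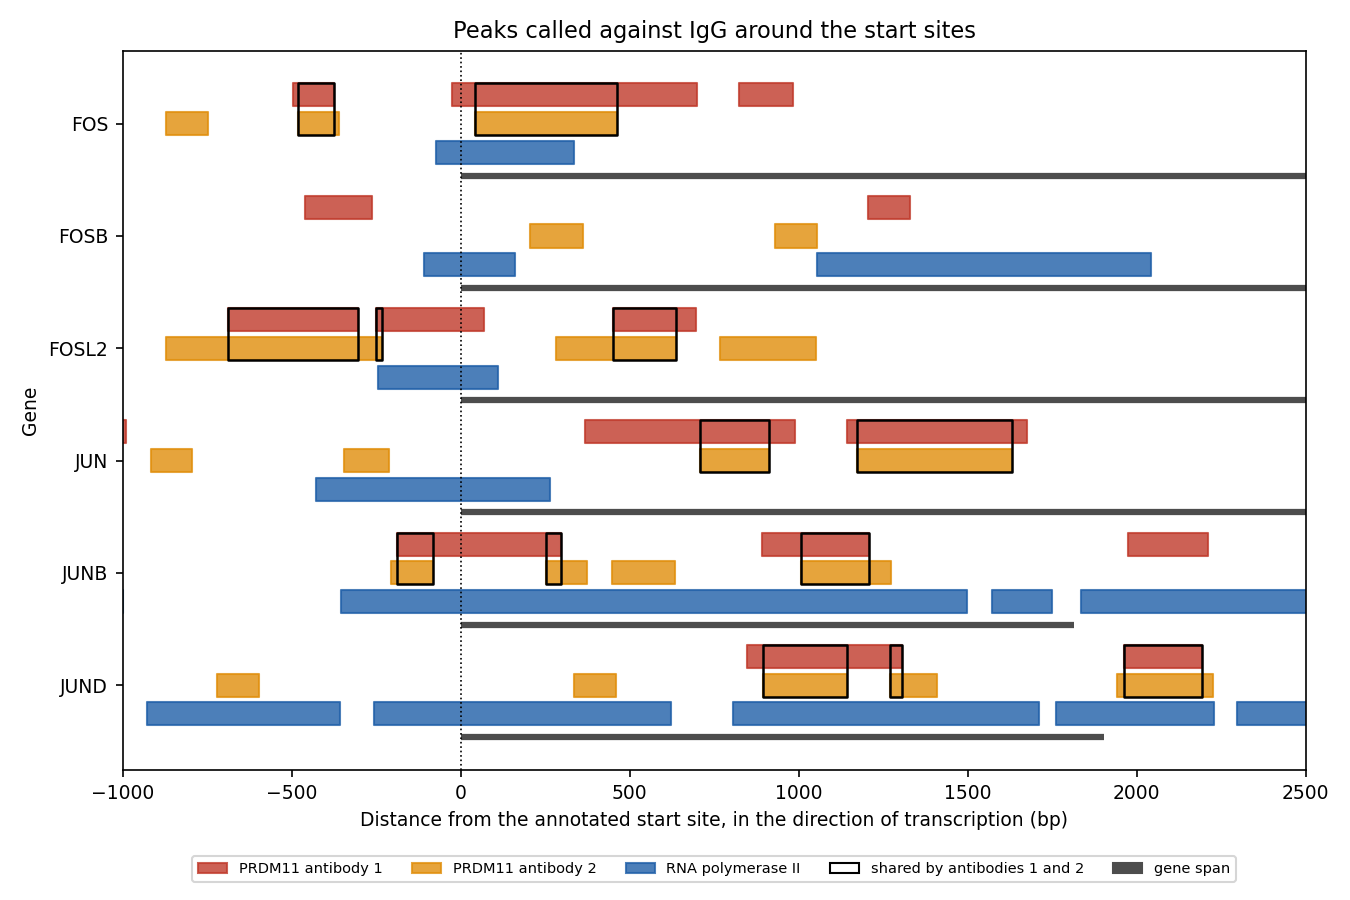
Peaks called against IgG around each start site (dotted line), in bp along the direction of transcription. Black frames mark segments common to antibodies 1 and 2. Frames lie between 708 and 1630 bp inside JUN and, inside JUND, between 894 and 1305 bp with 1 more past its end, and JUNB has 1 at 1006 to 1208 bp besides narrow ones on either side of its start. The widest frames of FOS and FOSL2 lie nearer to the start, 2 narrow FOSL2 segments farther upstream fall outside the plot, and there is none in FOSB.

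FOSL2, which encodes the FOS relative FRA2, lies on chromosome 2 (chr2:28615779-28637516, plus strand) and had 6 antibody 1 peaks, of which 4 lay upstream. Its window is the longest, and per 10 kb it had 1.89 antibody 1 peaks, within the range from 1.68 at JUND to 3.00 at JUN. The peak over its start was 320 bp wide, from 251 bp upstream to 68 bp downstream (chr2:28615528-28615847), and 315 bp of it lay in a 355 bp polymerase peak, from 246 bp upstream to 108 bp downstream. It touched antibody 2 by 19 bp only. The larger overlap of the antibodies was next to it: a 384 bp antibody 1 peak 305 to 688 bp upstream lay wholly in the widest antibody 2 peak at any member, 640 bp (chr2:28614907-28615546), a width reached by 0.0683% of that list. No polymerase peak overlapped this antibody 1 peak against IgG, while against input a 224 bp polymerase peak did. Inside the gene, a 246 bp antibody 1 peak at 450 to 695 bp shared 187 bp with a 355 bp antibody 2 peak at 282 to 636 bp, and a 286 bp antibody 2 peak followed at 766 to 1051 bp. Farther upstream, antibody 1 peaks of 215 bp and 239 bp, between 2165 and 2912 bp before the start, shared 6 and 73 bp with antibody 2, and the 239 bp peak lay wholly in a polymerase peak of 315 bp (2107 to 2421 bp upstream). The last one, 130 bp wide at 1896 to 2025 bp, stood alone. Polymerase peaks of 130 bp (2493 to 2622 bp upstream) and 256 bp (1047 to 1302 bp upstream) overlapped no antibody 1 peak. All 6 antibody 1 peaks were found against input.

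More than 10 kb into FOSL2 only antibody 2 gave peaks. It had 8 peaks of 123 to 259 bp between 12105 and 21114 bp after the start, of which those of 259 bp (from 15801 bp) and 211 bp (from 19649 bp) were over 200 bp wide. The number was the same against input, with no antibody 1 or polymerase peak beside them in any list. Over chromosome 2 as a whole antibody 2 had 1.40 peaks per 10 kb, which is sparser than in this stretch, but the stretch was singled out after its peaks were seen.

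FOSB (chr19:45971253-45978437, plus strand) was the member where the antibodies did not meet. Its antibody 1 peaks were 201 bp (262 to 462 bp upstream), 123 bp (1205 to 1327 bp), 123 bp (4786 to 4908 bp) and 423 bp, the last beginning 2989 bp past the gene end. Its antibody 2 peaks, of 123 to 170 bp, all lay inside the gene, and the closest approach of the 2 antibodies was 151 bp. The polymerase peak over the start, 271 bp from 109 bp upstream to 161 bp downstream, overlapped neither. A larger polymerase peak of 988 bp at 1053 to 2040 bp contained the 123 bp antibody 1 peak at 1205 bp and 1 bp of an antibody 2 peak. Against input, however, FOSB did have a shared region: a 136 bp antibody 1 peak at 205 to 340 bp lay wholly in the 157 bp antibody 2 peak that both lists held. The call that FOSB lacks a shared region therefore depends on the control. The 423 bp peak past the end (10173 to 10595 bp) overlapped a 171 bp polymerase peak (10470 to 10640 bp) by 126 bp, and RefSeq on GRCh38.p14 names the transfer RNA gene TRU-TCA1-1 within 5 kb of FOSB. Its position on hg19 was not used here.

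Over all 6 genes, 13 of 22 antibody 1 peaks overlapped antibody 2, a share of 59.1% (36.4% to 79.3%), against 47.2% of the whole list. Against input the share was 17 of 27, or 63.0% (42.4% to 80.6%), against 34.8% of the list, so that the interval includes the level of the list with IgG and lies above it with input. For overlap with RNA polymerase II the share was 10 of 22, or 45.5% (24.4% to 67.8%), against 55.2% of the list, and against input 55.6% (35.3% to 74.5%) and 44.9%. It divided by gene: 5 of 5 antibody 1 peaks at JUNB and JUND lay in polymerase peaks, and 5 of 17 at the other genes. Against input these were 6 of 6 and 9 of 21. With IgG, polymerase peaks covered 92.2% of the JUNB span and 87.8% of the JUND span. Antibody 1 peaks past the gene ends lie outside these spans. Over the gene windows the polymerase coverage was 41.7% at JUNB and 43.9% at JUND. How far coverage alone accounts for the overlap was not tested. Antibody 1 peaks in both other lists numbered 7, or 31.8% (13.9% to 54.9%), against 32.6% of the list, and against input 37.0% (19.4% to 57.6%) and 24.0%. The share of antibody 1 peaks that overlapped polymerase was thus not distinguishable from that of its list under either control, with few peaks to judge by. For the share that overlapped antibody 2, the answer depended on the control. The share at the genes was similar with IgG and input (59.1% and 63.0%), while the level of the list was lower with input (47.2% and 34.8%). The lists of both antibodies used the same control library, so their overlap is not independent of it.

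Seen from the longer lists the shares at the genes were higher than those of the whole lists, clearly so for antibody 2 and narrowly for polymerase. Of the 38 antibody 2 peaks at the genes, 14 overlapped antibody 1, or 36.8% (21.8% to 54.0%), while 1.59% of the whole antibody 2 list did. Against input the values were 46.2% (30.1% to 62.8%) and 5.05%. Of the 28 polymerase peaks, 9 held antibody 1, or 32.1% (15.9% to 52.4%), against 14.3% of the list, and against input 48.3% (29.4% to 67.5%) and 29.4%. For polymerase the list level was thus close to the lower limit with IgG and at the edge of the interval with input. Among the 6 polymerase peaks that covered a start site, 3 overlapped antibody 1 and 5 overlapped antibody 2, and against input the numbers were 5 and 4. The same counts over start sites of other genes were not made. Of all polymerase peaks, wherever they lay, 25.6% overlapped antibody 2 with IgG and 29.6% with input. The shares that overlap antibody 1 rise where its peaks are dense, as they are in the gene windows. How far density alone accounts for them was not tested.

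Antibody 1 peaks had a median of 238 bp, against 184 bp over the list, and 15 of 22 were 200 bp or wider, or 68.2% (45.1% to 86.1%), against 45.0% of the list. This was at the edge of the interval, and neither the same share against input, 55.6% (35.3% to 74.5%) against 41.1%, nor the share of 500 bp or wider with IgG, 13.6% (2.91% to 34.9%) against 10.7%, could be told from the list. Of the antibody 2 peaks 20 of 38 had the minimum width of 123 bp, which was also the median at the genes and in the list. Still, 11 of 38 were 200 bp or wider, or 28.9% (15.4% to 45.9%), against 8.66%. RNA polymerase II peaks had medians of 377 bp and 246 bp. The widest peaks were at FOS and JUN for antibody 1, at FOSL2 for antibody 2 and at JUNB for polymerase.

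**Figure D4:**
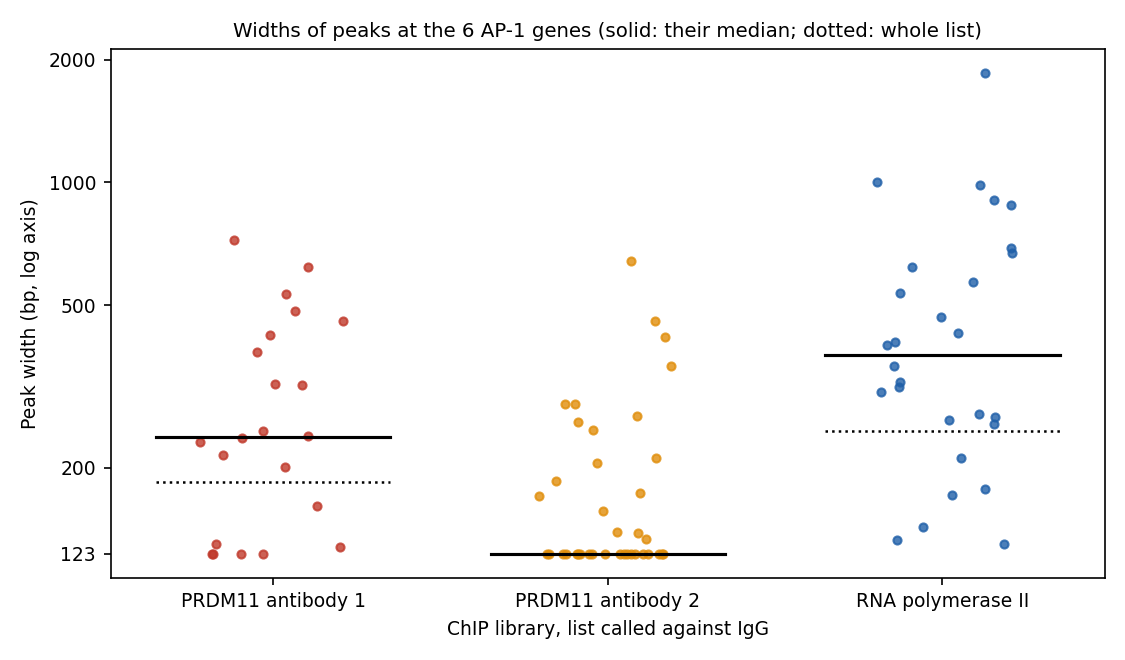
Width of each peak at the 6 genes (points, bp on a log axis) in the 3 lists against IgG, with their median (solid line) and the median of the whole list (dotted line). The antibody 1 medians are 238 and 184 bp and the RNA polymerase II medians 377 and 246 bp, and both antibody 2 medians fall on the minimum of 123 bp.

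Most IgG calls at these genes did not depend on the control, and the same held for the whole IgG lists. Against input, 19 of 22 antibody 1 peaks, 34 of 38 antibody 2 peaks and 26 of 28 polymerase peaks were found again, or 86.4%, 89.5% and 92.9%, against 81.3%, 93.2% and 89.4% of the whole lists. The 3 antibody 1 peaks that were not found again were 123 to 161 bp wide, 2 at FOS and 1 at FOSB. Conversely, 19 of the 27 antibody 1 peaks called against input at the genes were found against IgG, or 70.4% (49.8% to 86.2%), where the whole input list gave 19.5%. The input list of antibody 1 is the longer one, with 54038 peaks against 13499 with IgG. How far its length sets this difference was not tested.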

How the data were processed

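ChIP-seq peak lists of U2932 cells were analysed: 1 list per ChIP library (PRDM11 antibody 1, PRDM11 antibody 2, RNA polymerase II) and control (IgG, input). Bowtie 0.12.7, SAMtools, MACS2 2.0.9 and build hg19 are named, without roles or settings, per the submitters' processing notes. The control and a q threshold of 0.1 stand only in the names of the deposited lists. The deposited values are 3 columns, chromosome, start and end, with no score, fold or count, so depth and precision are unknown. Starts were converted to count from 1.

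Gene spans on hg19 were given with the choice of genes, and strands came from the RefSeq promoter table (GRCh38.p14) by symbol. The members and lists were chosen with earlier results of these data known. All 6 genes were described by rule: each polymerase and antibody 1 peak, and each antibody 2 peak of at least 200 bp, by position, and the rest by counts and ranges. Bins ran from the first to the last position any list reaches on chromosomes 1 to 22 and X. Related genes such as FOSL1, ATF3 and BATF were not analysed here, since no hg19 spans were at hand. Python 3.11.15 was used for overlaps (NumPy 2.4.6), tables (pandas 2.3.3), intervals (SciPy 1.17.1) and figures (matplotlib 3.10.9). The overlap code was tested on simulated data and checked against bedtools 2.31.1. Alternatives were the input lists, peaks found with both controls, other windows, 50% coverage and a 200 bp minimum width.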

Additional observations from a re-analysis of the deposited data

How the results depend on the processing

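Of 42 alternatives to the counts of genes and the shares of antibody 1 peaks, 41 left the value within a factor of 1.5 or inside its interval. The exception, chosen after seeing the data, was the number of start sites in an antibody 2 peak: 0 under either control, and 2 (FOS and JUNB) when peaks within 100 bp of the start were counted, since gene models differ between annotations. Counts of genes made up 28 of the alternatives and had little room to move, since each is at most 6 and a wider window cannot lose a peak. The number of genes with a shared region was 5 with IgG lists and 6 with input lists, and antibody 2 peaks of 200 bp or wider were present at 5 genes, all but FOSB. The share of antibody 1 peaks in antibody 2 ranged from 36.4% (at least 50% of the peak covered) to 63.0% (input), and that in polymerase from 36.4% (50% covered) to 55.6% (input). The lowest share in antibody 2 was counted as unchanged only because it lay at the lower edge of the interval (36.4% to 79.3%). The intervals around these shares are wide because 22 peaks stand behind them. No paired analysis was possible because each antibody has 1 library, which also leaves no replicate to leave out. A threshold on score was not run because the lists hold none.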
